A study of Macaca mulatta with 12 samples.

Results

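TRBV4 is a family of 3 T cell receptor beta variable (V) genes in the rhesus macaque reference used for these libraries, TRBV4-1, TRBV4-2 and TRBV4-3. Its members were taken from every clone table as the clonotypes whose first-listed V gene was a TRBV4 gene. They made up 16547 of 218326 clonotype entries in 12 sequenced libraries of TRB (T cell receptor beta) transcripts, 15399 of 205174 distinct clonotypes, and 189159 of 2588075 counts. TRBV4-1 held 20791 of these counts, TRBV4-2 held 108653 and TRBV4-3 held 59715. A clonotype here is a CDR3 nucleotide sequence, a count is 1 sequence assigned to it, and a share is the percent of all counts of a library.

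The study examined blood leukocytes of rhesus macaques infused with apoptotic donor leukocytes (ADLs), white cells of a donor that had been fixed chemically so that they die in the recipient. The 4 baseline libraries carry the label base line and come from animals with other names than the rest. The 8 post-infusion libraries are named after the monkeys Amazo, Nebula and Rocket. All 3 names occur at day -5 and at day -4, Nebula alone at day 0 and Amazo alone at day +3. Per the series text, ADLs were infused on days -7 and 1, so that days -5, -4 and 0 lie 2, 3 and 7 days after the first infusion and day +3 lies 2 days after the second. A figure legend places the second infusion on day 0 instead, which would make day 0 an infusion day and day +3 lie 3 days after it. Per the study's methods, these were nondiabetic male monkeys without a graft, infused from donors that differed in MHC class I and shared a single class II DRB allele, and all received the antagonistic anti-CD40 antibody 2C10R4, rapamycin, the anti-IL-6 receptor antibody tocilizumab and the soluble TNF receptor etanercept. No library of an animal given these drugs without ADLs was analysed, so drug and infusion cannot be told apart.

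A TRB chain is made by joining a V, a D and a J gene segment, with trimming of the ends and addition of bases not encoded in the genome. The joined region is CDR3, the part of the receptor that lies over the presented peptide, and its sequence serves as a tag of a T cell clone. The D1 segment lies before both J clusters and the D2 segment between them, so that D2 usually joins a J2 gene. In humans, TRBV4-2 and TRBV4-3 are near-identical genes, and TRBV4-1 is over-represented among T cells that recognise lipids presented by CD1 molecules.

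Total counts were 63 to 74 in the baseline libraries and 42695 to 556954 after infusion. The smallest share that 1 count could give was thus 1.35% to 1.59% at baseline, and 0.000180% to 0.00234% in the deeper libraries. With such a gap in depth, batch and group cannot be told apart for baseline. The libraries labelled Amazo day -5 and Amazo day +3 shared their large TRBV4 clones with the Rocket libraries, while the library labelled Amazo day -4 shared few with any library. Between Amazo day -5 and Rocket day -5, 204 TRBV4 clonotypes were in common and held 49.8% and 62.4% of TRBV4 counts, respectively. Between Amazo day -5 and Amazo day -4, 21 were in common and held 24.3% and 4.07%. The 3 Nebula libraries shared 95 to 137 TRBV4 clonotypes pairwise. Animal names are therefore used as labels, and comparisons with the Amazo pair are also given without it. Day -4 is the only time point whose 3 libraries shared few TRBV4 clonotypes, with 3 in common between Amazo and Rocket. Over all V genes, clonotypes shared by Amazo day -4 and Rocket day -4 held 6.78% and 36.0% of their counts, respectively. Those shared with Amazo day -5 held 24.2% of Amazo day -4 counts, so the day -4 repertoires are not fully separate. Nothing says that each day -4 library stands for more than 1 sample of an animal, and a p-value from the counts of 2 libraries measures counting error alone. In bulk RNA, the number of cells of a clone and the RNA per cell cannot be told apart.

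The CDR3 sequences below are those of the clones on which the results turn: the most abundant clonotypes of each gene over the post-infusion libraries, and the largest TRBV4 clonotype of each library. Capitals mark the bases between the end of V and the start of J, that is D and added bases, and lower case marks the V-encoded start and the J-encoded end. Each name gives the V, D and J genes and the CDR3 length.

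TRBV4-1 TRBD1 TRBJ2-2 48 nt: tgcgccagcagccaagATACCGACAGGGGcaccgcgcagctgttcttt
TRBV4-1 TRBD1 TRBJ1-5 51 nt: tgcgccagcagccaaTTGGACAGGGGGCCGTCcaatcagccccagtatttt
TRBV4-1 TRBD2 TRBJ2-3 45 nt: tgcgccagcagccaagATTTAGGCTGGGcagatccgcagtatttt
TRBV4-2 TRBD2 TRBJ2-2 51 nt: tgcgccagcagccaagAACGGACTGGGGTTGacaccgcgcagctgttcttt
TRBV4-2 no D TRBJ1-4 48 nt: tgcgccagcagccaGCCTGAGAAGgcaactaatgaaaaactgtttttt
TRBV4-2 no D TRBJ1-6 48 nt: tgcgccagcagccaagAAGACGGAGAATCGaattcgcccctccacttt
TRBV4-2 TRBD1 TRBJ2-2 48 nt: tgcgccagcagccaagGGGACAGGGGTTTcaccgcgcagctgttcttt
TRBV4-2 TRBD1 TRBJ2-4 42 nt: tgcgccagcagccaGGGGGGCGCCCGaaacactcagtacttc
TRBV4-3 TRBD2 TRBJ2-7 50 nt: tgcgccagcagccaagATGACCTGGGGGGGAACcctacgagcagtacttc
TRBV4-3 TRBD2 TRBJ2-1 54 nt: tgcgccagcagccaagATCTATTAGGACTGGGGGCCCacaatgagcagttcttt
TRBV4-3 TRBD1 TRBJ2-1 45 nt: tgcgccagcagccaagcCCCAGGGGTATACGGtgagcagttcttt

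The V-encoded start was the same for the 3 genes. Among clonotypes with no V base trimmed, tgcgccagcagccaag (16 bases) was the start of 96.2% of 952 TRBV4-1 clonotypes, 96.1% of 3149 TRBV4-2 clonotypes and 96.0% of 3380 TRBV4-3 clonotypes. No other gene among the 37 V genes with at least 100 productive clonotypes in each day -4 library had this sequence as its most frequent untrimmed start. CDR3 therefore does not tell the 3 genes apart, and their assignment rests on V bases upstream of it. Of the clones above, 7 of 11 kept all 16 bases, 3 lost 1 or 2 bases, and the 45-nt TRBV4-3 clone had 1 base past them assigned to V.

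The first question was how much of the repertoire the TRBV4 genes took up in each library. TRBV4-2 was the most abundant gene of the family, TRBV4-3 was in the middle and TRBV4-1 was the least abundant in all 8 post-infusion libraries. TRBV4-2 took 5.37% of counts in Amazo day -5, 3.16% in Nebula day -5, 4.96% in Rocket day -5, 3.22% in Amazo day -4, 3.23% in Nebula day -4, 5.22% in Rocket day -4, 3.23% in Nebula day 0 and 4.25% in Amazo day +3. It was higher in the 4 libraries that share the Rocket repertoire than in the other 4. Libraries that share clones are not independent samples, and how many other V genes split in this way was not counted. TRBV4-3 took 2.53%, 2.33%, 2.24%, 2.40%, 2.11%, 2.48%, 2.03% and 2.16% in the same order. Its share of counts hardly differed between libraries, and the coefficient of variation of that share over the 8 libraries was 7.87%. This was the lowest of 57 V genes (median 42.2%), those that reached 10 counts in 3 or more of the day -5 and day -4 libraries. As a percent of clonotypes, TRBV4-3 ran from 2.07% to 3.86%, with a coefficient of variation of 24.8%. TRBV4-1 took 0.632%, 1.31%, 0.463%, 0.844%, 1.37%, 0.516%, 1.37% and 0.550% of counts. The 3 Nebula libraries lay above the other 5, but not once clonotypes with V hits to more than 1 gene were left out, when Nebula day -4 held 0.813% and Amazo day -4 0.842%. Coefficients of variation of the count shares of TRBV4-2 and TRBV4-1 were 24.2% and 45.8%. By rank among the V genes of a library, TRBV4-2 was 4 to 10, TRBV4-3 12 to 16 and TRBV4-1 25 to 40.

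**Figure D1:**
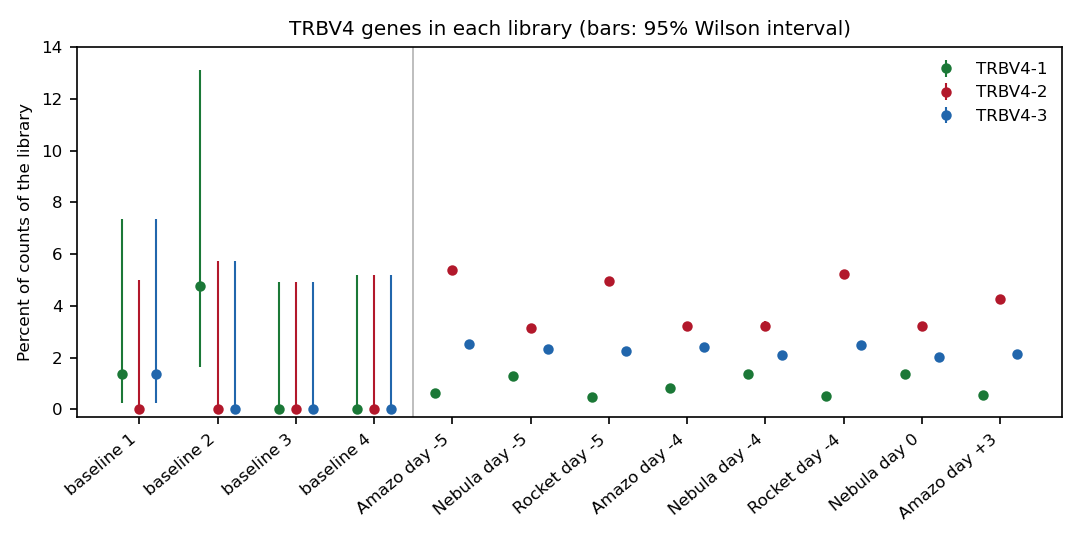
Percent of the counts of each library assigned to TRBV4-1, TRBV4-2 and TRBV4-3. Points are single libraries, bars are 95% Wilson intervals for counting error, and the vertical line separates the 4 baseline libraries from the 8 post-infusion libraries. TRBV4-2 is above TRBV4-3 and TRBV4-3 above TRBV4-1 in each post-infusion library, whereas the baseline intervals span several percent.

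In the baseline libraries, TRBV4 counts were few. Baseline 1 held 2 TRBV4 counts of 73 (2.74%, 95% Wilson interval 0.755% to 9.45%), and baseline 2 held 3 of 63 (4.76%, 1.63% to 13.1%). Baselines 3 and 4 held 0 of 74 and 0 of 70 counts, with upper Wilson limits of 4.93% and 5.20% (4.05% and 4.29% at 3 counts). Of the 5 counts, 4 had V hits to more than 1 TRBV4 gene, and all 4 were listed under TRBV4-1 first. TRBV4-2 was first hit of no baseline count. The family share had a mean of 1.88% ± 2.32 (SD) over the 4 baseline libraries. Over the 3 libraries of day -5 it was 7.66% ± 0.871, and over those of day -4 it was 7.13% ± 0.948. All day -5 and day -4 libraries were above all baseline libraries, with differences of 5.79 and 5.26 percentage points (exact two-sided permutation p = 0.0571 for each, the smallest that 4 against 3 libraries allow). Depth and animal names differed between these groups, and the names allow no pairing. Whether they stand for different animals is not known, and the part of depth or animal in the difference was not tested.

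Between day -5 and day -4 the family share did not move beyond the spread of the pairs. It was 8.53% and 6.47% in the pair labelled Amazo, 6.79% and 6.72% in Nebula, and 7.66% and 8.22% in Rocket. The share was lower at day -4 in 2 of 3 pairs, and the mean difference was -0.53 percentage points with an SD of 1.37 (exact two-sided sign-flip p = 0.75, where 3 pairs allow 0.25 at the least). Without the Amazo pair the mean difference was 0.24 percentage points. With counts summed per V gene and the animal name as a block, the log2 fold change of day -4 over day -5 was 0.13 ± 0.21 for TRBV4-1 (SE, adjusted p = 0.809), -0.29 ± 0.29 for TRBV4-2 (adjusted p = 0.673) and -0.11 ± 0.17 for TRBV4-3 (adjusted p = 0.809). No member was called, and neither was any other of the 57 V genes (0%, with 0 at an unadjusted p below 0.05, and with 0 called and 5 at an unadjusted p below 0.05 by DESeq2, none of them a TRBV4 gene). Without the Amazo pair the log2 fold change was 0.04 for TRBV4-1, -0.02 for TRBV4-2 and -0.07 for TRBV4-3. No TRBV4 gene was then called, but 4 of 56 V genes were, and 1 of 56 without the Nebula pair.

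Next, the clones behind each gene were examined. A few large clones held much of TRBV4-2 in the Rocket repertoire, and its counts were spread over more clonotypes elsewhere. Its 3 largest clonotypes held 49.3% of TRBV4-2 counts in Amazo day -5, 58.6% in Rocket day -5, 49.7% in Rocket day -4 and 42.6% in Amazo day +3, but 12.8% in Nebula day -5, 20.1% in Nebula day -4, 11.4% in Nebula day 0 and 5.06% in Amazo day -4. The number of clonotypes needed to reach 50% of TRBV4-2 counts was 3 in Rocket day -5, 4 in Amazo day -5 and Rocket day -4, 24 in Amazo day +3 and between 96 and 258 in the other 4 libraries. When the 3 largest clonotypes of each library were left out, the remaining TRBV4-2 share ran from 2.06% to 3.06% (coefficient of variation 11.3%), and the libraries of the Rocket repertoire were no longer the highest. Large clones of the Rocket repertoire were not particular to TRBV4-2. Over all V genes, 25 clonotypes reached 0.5% in Rocket day -5 or day -4, 3 of them TRBV4. In Nebula day -5 or day -4 there were 4, 1 of them TRBV4.

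To reach 50% of its counts, TRBV4-3 needed more clonotypes than TRBV4-2 in the 4 libraries of the Rocket repertoire, and fewer in the other 4. Its 3 largest clonotypes held 7.12% to 27.7% of its counts, and 92 to 274 clonotypes were needed to reach 50%. In TRBV4-1, as in TRBV4-2, the largest clonotypes held more of the gene in the Rocket repertoire than in Nebula. In the Nebula libraries its 3 largest clonotypes held 3.48%, 5.98% and 4.75% of its counts and 82 to 125 clonotypes made up 50%. In the 4 libraries of the Rocket repertoire they held 23.0% to 33.3% and 12 to 38 clonotypes made up 50%.

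**Figure D2:**
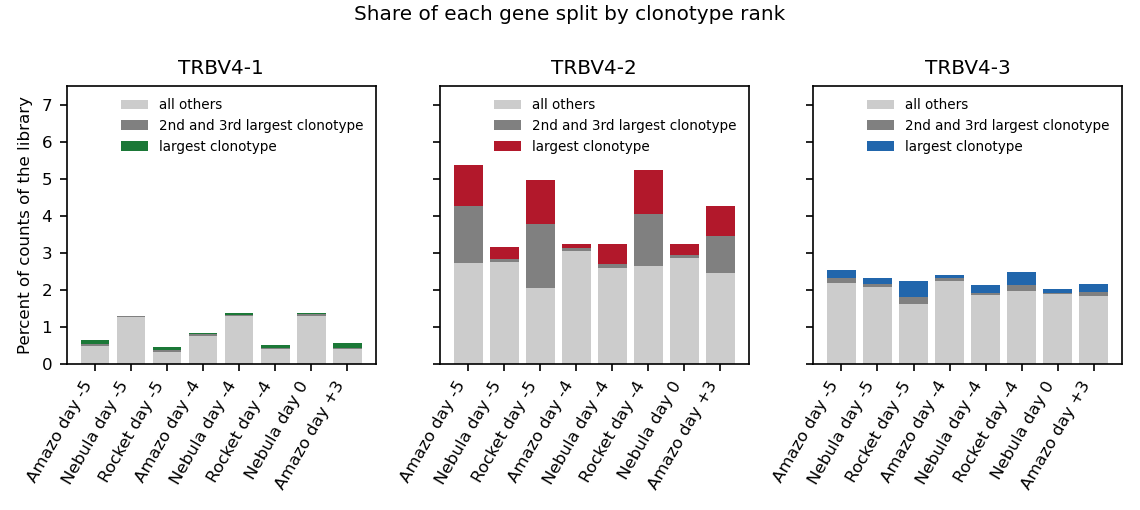
Percent of the counts of each post-infusion library held by each TRBV4 gene, split into the largest clonotype of that gene and library (colour), the next clonotypes by rank (dark grey) and all others (light grey). The coloured and dark grey parts are tall for TRBV4-2 in Amazo day -5, Rocket day -5, Rocket day -4 and Amazo day +3, and thin in Amazo day -4, whose largest TRBV4-2 clonotype held 0.0851% of counts.

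The most abundant TRBV4 clone was a TRBV4-2 rearrangement with D2 and J2-2. Its 51-nt CDR3 held 1.11% of counts in Amazo day -5, 1.19% in Rocket day -5, 1.19% in Rocket day -4 and 0.810% in Amazo day +3. It had 3 counts in Nebula day -5, 1 in Amazo day -4 and 0 in Nebula day -4 and Nebula day 0. The 48-nt TRBV4-2 clone with J1-4 and no D segment assigned held 0.906%, 1.18%, 0.945% and 0.721% in the same 4 libraries, and the 48-nt clone with J1-6 and no D held 0.631%, 0.538%, 0.463% and 0.279%. Both were at 0 to 2 counts in the other 4 libraries. The Nebula libraries had a TRBV4-2 clone of their own, with D1 and J2-2 and a CDR3 of 48 nt, at 0.310% on day -5, 0.541% on day -4 and 0.276% on day 0, and at 0 counts elsewhere. This Nebula clone ranked 5, 3 and 4 among all clonotypes of these libraries, whereas the 51-nt clone ranked 11 to 17 where it was abundant. The largest TRBV4 clone of Amazo day -4 was a 42-nt TRBV4-2 clone with D1 and J2-4 at 0.0851%, which also had 22 counts in Amazo day -5 and 0 in the other 6 libraries. Each of the large clones was thus abundant in 1 repertoire and at or near 0 in the others.

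The largest TRBV4-3 clone of the Rocket repertoire could not encode a receptor. It joined D2 to J2-7 with a CDR3 of 50 nt, which is not a multiple of 3 and so is out of frame. It held 728 counts (0.209%) in Amazo day -5, 2436 (0.437%) in Rocket day -5, 926 (0.357%) in Rocket day -4 and 617 (0.203%) in Amazo day +3, and 0 in the other 4 libraries. In Rocket day -5 this clone alone was 19.6% of TRBV4-3 counts. Among all non-productive clonotypes, it ranked 1 in Amazo day -5, Rocket day -5 and Rocket day -4 and 2 in Amazo day +3. T cells can carry such a rearrangement on their other TRB allele, and its transcript is still sequenced. With it, non-productive clonotypes made up 13.3%, 24.6%, 17.6% and 12.6% of TRBV4-3 counts in these libraries, against 2.31% to 4.69% in the other 4. Over all V genes but TRBV4 that percentage was 3.92% to 6.41% in the 8 libraries. Of 57 V genes, 3 to 6 had a non-productive clonotype as their largest in these 4 libraries.

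The largest productive TRBV4-3 clones were a 54-nt D2 and J2-1 rearrangement and a 45-nt D1 and J2-1 rearrangement. The 54-nt clone held 0.101%, 0.169%, 0.151% and 0.0962% in the 4 libraries of the Rocket repertoire, and the 45-nt clone held 0.187%, 0.199% and 0.108% in the Nebula libraries from day -5 to day 0. TRBV4-1 clones were smaller. The largest, with D1, J2-2 and 48 nt, held 0.0928% in Amazo day -5, 0.0966% in Rocket day -5, 0.0747% in Rocket day -4 and 0.122% in Amazo day +3. It uses the same D and J genes and the same J-encoded end as the large TRBV4-2 clone of Nebula, but other bases between V and J, as the capitals above show. The 51-nt TRBV4-1 clone with D1 and J1-5 was seen in Nebula alone, at 0.0235%, 0.0468% and 0.0310%, and the 45-nt clone with D2 and J2-3 held 0.0119% to 0.0404% in the Rocket repertoire.

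**Figure D3:**
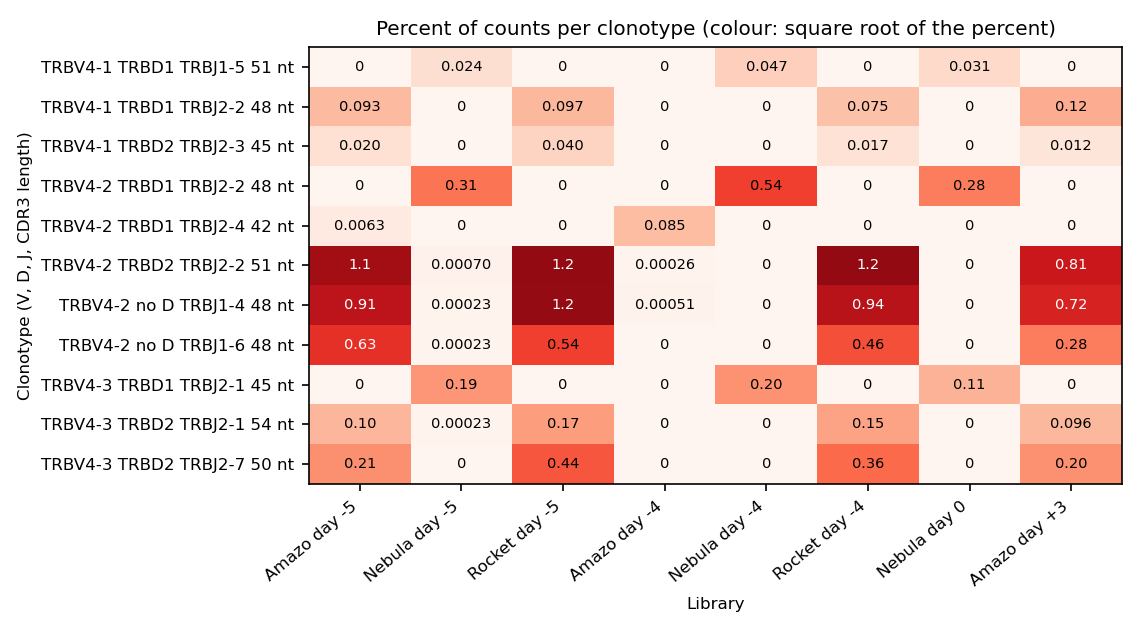
Percent of the counts of each post-infusion library held by the 11 named TRBV4 clonotypes, with the value in each cell and colour by its square root. Clones present in Amazo day -5, Rocket day -5, Rocket day -4 and Amazo day +3 are at or near 0 in the Nebula libraries and in Amazo day -4, and the Nebula clones are at 0 outside Nebula.

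Of 15395 distinct TRBV4 clonotypes after infusion, 14610 were seen in 1 library and 785 in 2 or more. None was in all 8. In all 4 libraries of the Rocket repertoire there were 90, and in all 3 Nebula libraries 52. Those seen in Nebula, in the Rocket repertoire and in Amazo day -4 were 3, all of TRBV4-2. They included the D2 and J2-2 clone and the J1-4 clone, with at most 3 counts in any Nebula library and in Amazo day -4. The third, with D1, J2-4 and 51 nt, had 85 counts in Amazo day -4, 12 in Amazo day +3 and 1 in Nebula day -5. Carry-over between libraries of a pool was not tested.

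A supplementary list of V-D-J combinations mapped in these monkeys has 4 entries with TRBV4-2, more than the main text counts as altered clones of that V family. They were chosen on these samples, so their abundance is not independent evidence. Each was 1 clone in the libraries where it was abundant. The D2 and J2-2 combination held 1.30% of counts in Amazo day -5, 1.33% in Rocket day -5, 1.36% in Rocket day -4 and 0.908% in Amazo day +3, and the 51-nt clone was 85.7% to 89.2% of it. The combination without D and with J1-4 held 0.956%, 1.25%, 1.02% and 0.785%, and 1 clone was 91.8% to 94.8% of it. With J1-6 it held 0.647%, 0.555%, 0.475% and 0.298%, and 1 clone was 93.7% to 97.6% of it. The D1 and J2-2 combination held 0.40%, 0.611% and 0.328% in Nebula from day -5 to day 0, and 1 clone was 77.6% to 88.5% of it. Left without that clone, the D1 and J2-2 combination held 0.0519% to 0.0896% in Nebula, close to its 0.0605% to 0.0790% in the other 5 libraries. These combinations were thus present in every post-infusion library at a low level made of several clonotypes, and stood out where 1 clone was large.

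Whether TRBV4 clones changed between 2 libraries of 1 name was tested for clonotypes of at least 0.1% in either library by Fisher's exact test, with calls at an adjusted p below 0.05 and at least a 2-fold difference. In Rocket, 5 TRBV4 clonotypes were tested from day -5 to day -4 and none was lower (1 of 52 over all V genes, 1.92%) or higher (0 of 52, 0%). The D2 and J2-2 clone went from 1.19% to 1.19%, a ratio of 1.00 (95% interval 0.959 to 1.05). The J1-4 clone was 1.25-fold lower (1.2 to 1.31), the J1-6 clone 1.16-fold lower (1.09 to 1.24) and the out-of-frame TRBV4-3 clone 1.23-fold lower (1.14 to 1.32), all below the 2-fold limit. In Nebula, 2 TRBV4 clonotypes were tested from day -5 to day -4 and none was lower (0 of 25, 0%) or higher (2 of 25, 8.0%). The D1 and J2-2 clone was 1.74-fold higher at day -4 (1.51 to 2.01) and the 45-nt TRBV4-3 clone 1.06-fold higher (0.840 to 1.33). From day -5 to day 0 in Nebula neither clone was called lower (2 of 23, 8.70%) or higher (0 of 23, 0%). The TRBV4-2 clone was then 1.13-fold lower (1.03 to 1.23) and the TRBV4-3 clone 1.73-fold lower (1.5 to 1.98). Most of these differences were larger than counting error and smaller than 2-fold, and with 1 library a time they have no replicate check.

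In the pair labelled Amazo day -5 and day +3, 1 of 6 TRBV4 clonotypes was lower at day +3 (5 of 49 over all V genes, 10.2%) and none was higher (0 of 49, 0%). The called clone was the TRBV4-2 J1-6 clone, which went from 0.631% to 0.279%, 2.26-fold lower (2.09 to 2.45, Fisher's exact test with Benjamini-Hochberg adjustment, adjusted p = 1.66e-98). The other TRBV4-2 clones were 1.37-fold and 1.26-fold lower, the TRBV4-3 clones differed by 1.03-fold and 1.05-fold, and the TRBV4-1 clone was 1.31-fold higher. In the pair labelled Amazo day -5 and day -4, 5 TRBV4 clonotypes were tested and called lower (47 of 81 over all V genes, 58.0%) and none higher (34 of 81, 42%). This direction was fixed by the 0.1% threshold, since no TRBV4 clonotype of Amazo day -4 reached it and all 5 were tested through Amazo day -5. At a threshold of 0.05%, 8 of 11 TRBV4 clonotypes were lower (67 of 128 over all V genes) and 3 were higher (61 of 128). The J1-6 clone was at least 826-fold lower, taking 3 counts as the floor of Amazo day -4. The D2 and J2-2 clone had 3875 counts in Amazo day -5 and 1 in Amazo day -4, a ratio of 4368 with an interval of 784 to 172588. These 2 libraries shared 21 TRBV4 clonotypes (0.716% of those in Amazo day -5), whereas Amazo day -5 and day +3 shared 200. Whether Amazo day -5 and day -4 come from 1 animal was not tested.

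CDR3 length was then compared with the rest of the repertoire, over productive clonotypes counted once. The TRBV4 genes had the 3 longest mean CDR3s of the 37 V genes tested. Mean CDR3 length of TRBV4-3 was 45.92 nt in Amazo day -4, 45.65 nt in Nebula day -4 and 45.78 nt in Rocket day -4. That of TRBV4-1 was 45.57, 45.18 and 45.56 nt, and that of TRBV4-2 was 44.97, 44.59 and 44.98 nt. All other V genes together were at 43.11 to 43.67 nt over the 8 libraries, below each TRBV4 gene in each library. The difference from all other V genes was 2.56 ± 0.17 nt for TRBV4-3 (SE, limma adjusted p = 3.30e-11), 2.16 ± 0.17 nt for TRBV4-1 (adjusted p = 3.75e-10) and 1.61 ± 0.17 nt for TRBV4-2 (adjusted p = 4.46e-08). The limma SE and p-values here and below are moderated. They draw on the variance of all 37 V genes and not only on the libraries of the gene itself. All 3 members were longer, as were 14 of 37 V genes in all (37.8%). Over the 8 post-infusion libraries the difference ran from 1.13 to 2.68 nt and was positive in 8 of 8 libraries for each gene. The most frequent length was 45 nt for each TRBV4 gene in all 8 libraries, and 42 nt for the other V genes in 7 of 8. When clonotypes were weighted by their counts, TRBV4-2 was 3.00 nt longer with an adjusted p of 0.0896.

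Most of the added length lay in the V-encoded part. TRBV4-3 kept 14.67 to 15.03 V bases in CDR3 over the 8 libraries, TRBV4-1 14.46 to 14.86 and TRBV4-2 14.28 to 14.69, against 12.61 to 13.01 for the other V genes. The V-encoded part was 2.03 to 2.20 nt longer than in the other V genes for TRBV4-3, 1.72 to 2.02 nt for TRBV4-1 and 1.44 to 2.08 nt for TRBV4-2. The stretch between V and J differed by -0.53 to 0.87 nt and the J-encoded part by -0.63 to 0.35 nt. The untrimmed V end was 16 bases in 29 of the 37 V genes, the TRBV4 genes among them, 13 or 15 bases in 7 and 17 in 1. Over the day -4 libraries a mean of 1.12 bases was trimmed from TRBV4-3, 1.36 from TRBV4-1 and 1.52 from TRBV4-2, the 3 lowest values of the 37 V genes (median 2.88). No V base was lost in 53.1% to 61.9% of TRBV4-3 clonotypes, 46.7% to 56.3% of TRBV4-1 clonotypes and 44.0% to 51.5% of TRBV4-2 clonotypes, against 19.8% to 24.1% in the other V genes. The median difference in trimmed bases over the 8 libraries was -1.73 for TRBV4-3, -1.44 for TRBV4-1 and -1.23 for TRBV4-2, against median differences in V-encoded bases of 2.13, 1.83 and 1.62. The remainder is the length of the untrimmed end, which is shorter on average in the other V genes. These parts were read from the authors' alignments, and their differences are given without a test.

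**Figure D4:**
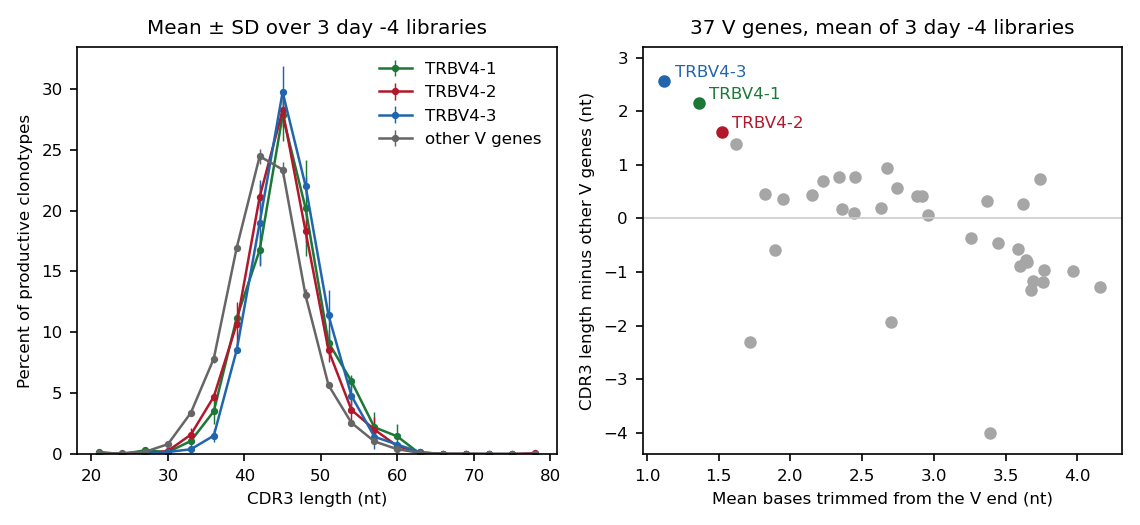
Left, percent of productive clonotypes by CDR3 length in nt for each TRBV4 gene and for all other V genes (mean ± SD over the 3 day -4 libraries). Right, mean difference in CDR3 length from all other V genes in nt against the mean number of bases trimmed from the V end, 1 point for each of 37 V genes. The TRBV4 curves peak at 45 nt and the curve of the other genes at 42 nt, and the TRBV4 genes lie at the upper left, with the least trimming and the longest CDR3.

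The D segment assigned to a clonotype differed slightly from the other V genes for TRBV4-2 and TRBV4-1. D1 was assigned to 46.1%, 43.6% and 42.5% of productive TRBV4-2 clonotypes in Amazo, Nebula and Rocket day -4, to 43.1%, 50.7% and 43.7% of TRBV4-1 and to 47.5%, 51.5% and 46.5% of TRBV4-3. Against other V genes this was -7.11 ± 1.40 percentage points for TRBV4-2 (SE, limma adjusted p = 0.00235), -5.10 ± 1.72 for TRBV4-1 (adjusted p = 0.0292) and -2.45 ± 1.49 for TRBV4-3 (adjusted p = 0.193). The 2 members called lower stand beside 11 of 37 V genes (29.7%). D2 was assigned more often, by 4.55 ± 1.43 percentage points in TRBV4-2 (adjusted p = 0.00479) and 4.40 ± 1.43 in TRBV4-1 (adjusted p = 0.00579), whereas TRBV4-3 differed by 2.02 ± 1.43 (adjusted p = 0.198), beside 12 of 37 V genes called higher (32.4%). The share without a D was called for no member and no V gene (0 of 37, 0%, and 0 members at an unadjusted p below 0.05). The D1 call of TRBV4-1 was lost without any 1 of the 3 libraries (adjusted p 0.0536 to 0.135) and that of TRBV4-2 without the Nebula day -4 library (adjusted p = 0.120), both D2 calls without the Rocket day -4 library (adjusted p of 0.0885 and 0.120), and all 4 when clonotypes were weighted by counts.

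The J2 cluster was joined by 51.7% to 70.1% of productive TRBV4-1 clonotypes, 53.7% to 69.0% of TRBV4-2 and 52.9% to 68.7% of TRBV4-3 over the 8 libraries. For the family it was 53.1% to 54.8% in the Nebula libraries and 64.0% to 66.7% in the other 5, and for the other V genes 58.2% to 58.3% and 62.5% to 65.1%. Clonotypes with D2 assigned used a J2 gene in 76.6% to 94.6% of cases, and those with D1 in 39.0% to 61.0%. At the level of single J genes, none of the 39 TRBV4 pairings differed from the other V genes at an adjusted p below 0.05, compared with 25 of 481 V-J pairings in all (5.20%). How many of all 481 pairings reached an unadjusted p below 0.05 was not counted, so the 7 TRBV4 pairings that did have no background. Chosen after their values were seen, the largest of them were TRBV4-1 with J1-4, at a log2 odds difference of 0.59 ± 0.18 (SE, limma adjusted p = 0.0773), TRBV4-1 with J1-6, at -0.86 ± 0.27 (adjusted p = 0.0932), and TRBV4-3 with J1-6, at -0.59 ± 0.25 (adjusted p = 0.171). J1-4 was joined by 13.1% ± 2.05 of TRBV4-1, 11.9% ± 1.41 of TRBV4-2 and 11.1% ± 2.22 of TRBV4-3 clonotypes (SD, n = 3 day -4 libraries), against 8.95% ± 0.932 in the other V genes. J1-6 was joined by 1.86% ± 1.07 of TRBV4-1, 2.37% ± 1.26 of TRBV4-3 and 3.32% ± 0.271 in the other V genes. The J2-2 gene of the largest TRBV4-2 clones was joined by 9.41% ± 1.06 of TRBV4-2 clonotypes, against 8.11% ± 0.478, a log2 odds difference of 0.24 ± 0.16 (adjusted p = 0.381).

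**Figure D5:**
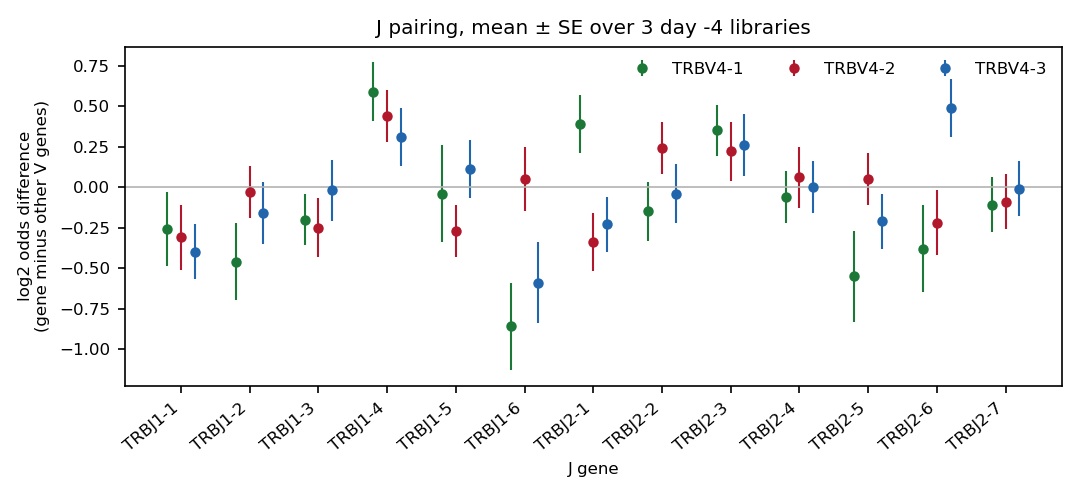
log2 odds difference in J gene pairing between each TRBV4 gene and all other V genes, over productive clonotypes counted once. Points are means over the 3 day -4 libraries, and 0 means the same odds as in the other V genes. Bars are limma moderated SE, which draw on the variance of all V-J pairings and do not show the spread of the 3 libraries. For TRBV4-1 with TRBJ1-6, Amazo, Nebula and Rocket day -4 lay at -0.10, -1.80 and -0.69. The points of TRBJ1-4 lie above 0 for all 3 genes, and that of TRBV4-1 with TRBJ1-6 is the lowest at -0.86, though none passed the adjusted test.

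The share of clonotypes that were out of frame or held a stop codon was lower in TRBV4-2 and TRBV4-3 than in the other V genes. In TRBV4-2 it was 4.40% in Amazo day -4, 3.66% in Nebula day -4 and 4.62% in Rocket day -4. In TRBV4-3 it was 5.79%, 2.94% and 4.2%. The difference was -2.98 ± 0.77 percentage points for TRBV4-2 (SE, limma adjusted p = 0.0470) and -2.87 ± 0.62 for TRBV4-3 (adjusted p = 0.0334), among 13 of 37 V genes called lower (35.1%). TRBV4-1 was at 5.38%, 4.14% and 15.0%, higher in Rocket day -4 than in the other libraries of that time, and differed by 1.06 ± 2.35 (adjusted p = 0.811). It was also 11.4% in Amazo day -5, 17.1% in Rocket day -5 and 10.7% in Amazo day +3 (other V genes 7.43%, 11.3% and 8.15%). In Nebula day -5 and day 0 it was 7.71% and 6.58% (other V genes 9.02% and 7.84%). The TRBV4-2 and TRBV4-3 calls were both lost when any 1 of the 3 libraries was left out (adjusted p 0.0805 to 0.144). Weighted by counts, the TRBV4-3 difference was 3.28 percentage points in the other direction, and the 50-nt out-of-frame clone was 14.4% of TRBV4-3 counts in Rocket day -4.

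How surely a clonotype was assigned to 1 TRBV4 gene differed between libraries. Clonotypes listed under TRBV4-1 whose V hits named a further gene were 15.2%, 50.0% and 20.2% of TRBV4-1 clonotypes in Nebula day -5, day -4 and day 0, and 2.38% to 4.27% in the other 5 libraries. For TRBV4-2 they were 15.8%, 22.9% and 17.1% in Nebula and 0.882% to 1.35% elsewhere. All such TRBV4-1 clonotypes named both TRBV4-1 and TRBV4-2. TRBV4-3 was ambiguous in at most 0.233% of clonotypes. Without the ambiguous clonotypes, TRBV4-1 held 1.24%, 0.813% and 1.21% of all counts in Nebula and 0.462% to 0.842% in the other 5 libraries. Nebula day -4, the shallowest post-infusion library, then lay below Amazo day -4, while Nebula day -5 and day 0 stayed above the other 5 libraries. Which gene the left-out clonotypes came from was not tested.

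By the pattern of shares over the 8 libraries, the V genes most like TRBV4-3 were TRBV7-6, TRBV7-5 and TRBV10-3, with an SD of the log2 ratio of shares of 0.13, 0.17 and 0.20 (median over 55 V genes 0.64). Those most like TRBV4-2 were TRBV7-4, TRBV7-5 and TRBV14, at 0.14, 0.18 and 0.19 (median 0.76). For TRBV4-1 they were TRBV2-2, TRBV10-1 and TRBV23-1, at 0.13, 0.14 and 0.18 (median 0.73). No TRBV4 gene was among the 3 most alike of another TRBV4 gene. The libraries share animals and a common total, so these values are descriptions.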

How the data were processed

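Blood leukocyte RNA of 12 libraries was, per the labels, copied to cDNA by template switching and amplified from the TRB constant region for MiSeq sequencing. The authors trimmed reads (Trimmomatic), and MiXCR built the clones from rhesus TRB segments. Each deposited table gives a whole-number count per clone, not normalized, and a clone fraction, which the authors made by dividing by the total count. Barcode collapse and a 0.5% threshold are described in the study, but the tables held no barcode column and clones far below 0.5%, and counts were used as they stand.

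V, D and J genes were first hits. Productive clonotypes were in frame without a stop. V, D and J boundaries came from the reference points column. Members, lists and rules were chosen with earlier results of these data known. Named clonotypes were, by rule, the 3 with the highest mean share per gene, the largest per library, and up to 3 called per library pair and direction. By rule also, J genes were named if called and V genes if among the 3 most alike, and the others were chosen after their values were seen. Coordinates were not used here.

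Day -4 and day -5 V gene counts were compared in edgeR 4.0.16 by its quasi-likelihood fit (TMM, at least 10 counts in 3 libraries, animal name as replicate block). J pairing (0.5 added to each count), CDR3 length, D assignment and non-productive share were tested with limma 3.58.1 as differences between a V gene and all others in the 3 day -4 libraries, for V genes with at least 100 productive clonotypes in each. Its SE and p-values are moderated, that is, the variance of each V gene or pairing is drawn toward that of all tested. Adjusted p-values are Benjamini-Hochberg over all V genes, pairings or clonotypes. Same-named libraries paired by label, but deviations from the group means of log2 values correlated at 0.86 in Nebula and 0.93 in Rocket and at -0.11 in Amazo. Intervals are 95%, Wilson for shares and Clopper-Pearson for ratios of counts, and with floors cover counting error only. R 4.3.3, Python 3.11.15, scipy 1.17.1 and DESeq2 1.42.0 were used. The edgeR, limma and Fisher steps were tested on simulated data, and the other steps were not.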

Additional observations from a re-analysis of the deposited data

Results flagged for a closer look

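The share of TRBV4-3 in baseline 1, 1.37%, stood apart from the other 3 baseline libraries, all at 0. It was 1 count of 73, and the other libraries allow shares of up to 4.05% to 4.76% at 3 counts. When the other 3 libraries are all at 0, any count in the remaining library stands apart, so no conclusion is drawn from this difference. How often chance alone gives such a pattern was not tested.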

How the results depend on the processing

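The family share difference between day -4 and day -5 ran from -1.07 to 0.24 percentage points without 1 animal name and was 0.24 without the pair labelled Amazo. Without the replicate block it was -0.53 (exact permutation p = 0.50), and 0 V genes were called with or without the block, against 4 of 56 without the Amazo pair and 1 of 56 without the Nebula pair. The differences from baseline ran from 5.16 to 6.75 (day -5) and from 4.63 to 6.22 (day -4). No TRBV4 gene was called under any V gene setting, and the log2 fold change reversed to 0.12 for TRBV4-2 with each clonotype counted once and to 0.00 for TRBV4-3 with 1 V hit. TRBV4 clonotypes lower in Amazo day -4 were 8 at a 0.05% threshold (67 of 128 over all V genes) and 3 at 0.5% (23 of 33). At 0.05%, 3 were higher (61 of 128). Selected on day -4, 0 were lower (0 of 34), and 0 TRBV4 clonotypes could be tested. TRBV4 clonotypes lower in Amazo day +3 were 2 at 0.05% (10 of 75 over all V genes) and 0 at 5-fold (0 of 49). With no minimum fold there, 3 were lower (14 of 49) and 1 was higher (27 of 49). Without a minimum fold, 3 were lower in Rocket day -4 (all V genes 38 of 52), 2 lower in Nebula day 0 (12 of 23) and 1 higher in Nebula day -4 (15 of 25), as was 1 at 0.05% (8 of 62). TRBV4-1 had too few clonotypes in Rocket day -5 and was not tested in the day -5 and 8-library settings, where the D1 and D2 counts were 1 each. Over all V genes, calls in either direction were then 23 of 40 and 27 of 36 for D1. For D2 they were 17 of 40 and 27 of 36. Brackets below also hold calls in either direction over all V genes, with Amazo, Nebula or Rocket day -4 left out in turn. TRBV4 J pairings called were 8 of 26 over the 8 libraries, which share animals (193 of 468 over all V genes). With 1 library left out they were 0 to 1 (0 of 494, 6 of 559 and 13 of 494). CDR3 length calls were 3 with any 1 library left out (23 of 38, 20 of 43 and 23 of 38) and 2 weighted by counts (4 of 37). D1 calls were 0 weighted by counts (0 of 37) and 1 with at least 2 counts (12 of 31). With 1 library left out, D1 calls were 0 to 1 (20 of 38, 0 of 43 and 13 of 38). D2 calls were 0 weighted by counts (0 of 37) and 0 to 3 with 1 library left out (25 of 38, 23 of 43 and 10 of 38). Non-productive calls were 1 in the day -5 libraries (18 of 40) and 1 weighted by counts (6 of 37). They were 0 with any 1 library left out (1 of 38, 1 of 43 and 0 of 38). The no-D difference, called nowhere, reversed to -1.15 (weighted) in TRBV4-1 and to -0.15 (day -5), -0.25 (8 libraries) and -0.70 (weighted) in TRBV4-3, and ran from -0.40 to 2.01 and -0.15 to 0.95 with 1 library left out. The non-productive difference reversed to -0.02 in TRBV4-1 and 3.28 in TRBV4-3 when weighted, and ran from -2.19 to 3.16 in TRBV4-1 with 1 library left out. The cause of these changes was not tested. At baseline, 63 to 74 counts limit every share.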
